A study of Mus musculus with 6 samples.

Results

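The genes described here handle choline and the phospholipids built from it. They are 10 genes chosen by name, of 34745 in the table: Slc44a1 and Slc44a2 (choline uptake), Chka, Chkb and Etnk1 (kinases for choline and ethanolamine), Pcyt1a, Chpt1 and Cept1 (the later steps to phosphatidylcholine), Pemt (the methylation route) and Gpcpd1 (breakdown of glycerophosphocholine). All 10 were found, and all 10 had enough counts to be tested. Gpcpd1 was picked because its difference between the diets was among those with the smallest p in an earlier look at these data, so the diet comparison of Gpcpd1 is a description and not a test, and the other 9 genes were taken as its pathway with those results known. Gpcpd1 stood 1.36 times and Pemt 1.51 times as high in tumours of the high cholesterol diet as in those of the normal diet, and Chka 0.854 times, each with no overlap between the diets, as for 11.1% of all tested genes. For the other 7 genes the diets overlapped, and 0 of the 10 passed the test of edgeR adjusted over all genes, where 0.0% of all genes passed.

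RNA was sequenced from 6 samples of tumours under the skin of the right flank of C57BL/6J mice. Of these samples, 3 came from mice given a high cholesterol diet (HCD) and 3 from mice given a normal diet (ND). All 6 samples came from tumours of injected cells labelled B16F10, which is a melanoma line of C57BL/6 mouse origin. The sources used here do not give age, sex or time on the diet, nor whether each sample came from its own tumour and animal. A p-value therefore covers only how far these samples spread, which may be technical. The libraries held 20351637 to 26228074 counts. Of 10 pigment cell genes, Tyr, Dct, Mlana and Oca2 had 0 counts in all 6 libraries, 5 others lay under 1 CPM (counts scaled to the TMM-adjusted library size) in each, and Mitf had 4.82 to 10.1 CPM in HCD and 3.53 to 6.62 CPM in ND libraries. A list of 12 hepatocyte genes summed to 8353 to 10780 CPM in HCD and 8446 to 10570 CPM in ND libraries. Most of it came from Alb, Igfbp1, Krt18 and Krt8. Over the 6 libraries Afp averaged 633, Hnf4a 169, Apoa1 61.35 and Ttr 10.05 CPM, while Apoh, Serpina1a, Fgg and Ahsg averaged under 1 CPM. Most pigment cell genes were thus at or near 0 and several hepatocyte genes high in all 6 libraries, which is at odds with the melanoma label. The tissue is therefore called by its labels only, and what the tumours are was not tested. Skeletal muscle genes set 2 libraries apart: their list of 9 genes summed to 2005 CPM in HCD 1 and 1866 CPM in ND 2. HCD 2 came next at 224.7 CPM, above HCD 3 (21.6), ND 1 (17.5) and ND 3 (30.7).

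Choline enters cells through transporters of the Slc44 family, among others, and is phosphorylated by choline kinase. Pcyt1a then makes CDP-choline, the rate-limiting step of the pathway in most cells, and Chpt1 or Cept1 joins it to diacylglycerol to give phosphatidylcholine, the main phospholipid of mammalian membranes and of lipoprotein coats. In liver, Pemt makes part of the phosphatidylcholine by methylating phosphatidylethanolamine. When phosphatidylcholine is taken apart to glycerophosphocholine, Gpcpd1 splits that into choline and glycerol-3-phosphate, so that choline can be used again.

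The stretches before the starts of 3 of these genes are shown because they stand at the entry to the CDP-choline route (Chka), at its rate-limiting step (Pcyt1a) and at the methylation route (Pemt). The Pemt window stands before a RefSeq start that lies inside the span of the gene in GENCODE M21, and the other 2 windows end at the start of their gene. All are RefSeq windows of 250 bases on GRCm38.p6, 5′ to 3′ on the strand of the gene, and capitals mark matches on either strand to 4 motifs.
Chka, chr19:3851523-3851772, plus strand: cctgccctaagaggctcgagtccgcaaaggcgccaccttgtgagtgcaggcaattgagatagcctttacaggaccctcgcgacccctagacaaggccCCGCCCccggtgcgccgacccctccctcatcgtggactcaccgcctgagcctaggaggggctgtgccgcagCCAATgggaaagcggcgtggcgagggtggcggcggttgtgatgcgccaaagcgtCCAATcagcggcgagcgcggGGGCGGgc
Pcyt1a, chr16:32430671-32430920, plus strand: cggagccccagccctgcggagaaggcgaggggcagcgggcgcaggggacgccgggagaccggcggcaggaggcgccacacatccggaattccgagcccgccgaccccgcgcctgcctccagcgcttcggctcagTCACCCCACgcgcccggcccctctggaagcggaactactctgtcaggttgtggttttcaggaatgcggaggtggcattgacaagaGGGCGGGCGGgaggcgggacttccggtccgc
Pemt, chr11:60040189-60040438, minus strand: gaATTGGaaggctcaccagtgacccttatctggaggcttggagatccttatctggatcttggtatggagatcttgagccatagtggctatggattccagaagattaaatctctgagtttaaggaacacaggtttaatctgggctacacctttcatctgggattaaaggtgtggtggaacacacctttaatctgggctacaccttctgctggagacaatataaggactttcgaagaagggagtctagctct
The motifs searched were a sterol regulatory element written TCACNCCAC, an E-box written CACGTG, a GC box written GGGCGG and a CCAAT box written CCAAT, and none of the matches shown overlaps a match to another motif. Of 32851 promoter windows of this length, 1.05% held the sterol element, 6.02% the E-box, 32.7% the GC box and 33.8% the CCAAT box. The Pcyt1a window held the sterol element once, with its first base 116 bases before the start, and 2 GC boxes that overlap each other. A second, shifted Pcyt1a window held the same element. No window of the other 8 members with one (16 member windows in all) held it, and Gpcpd1 had no window to search. The Chka window held 2 GC boxes and 2 CCAAT boxes, and the Pemt window shown 1 CCAAT box on the opposite strand. Another Pemt window held no match to these motifs. GC content was 68.0% for Chka, 71.6% for Pcyt1a and 44.8% for Pemt, beside a median of 52.4% over all windows. CG dinucleotides numbered 24, 28 and 1 in these windows, beside a median of 6. No window shown lies in an exon of GENCODE M21. A match is a run of letters and not a shown binding site.

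Of the uptake genes, Slc44a1, a choline transporter of the cell surface and of mitochondria (ENSMUSG00000028412, mm10 chromosome 4, 53440413 to 53622478), had 301.6, 394 and 406 CPM in HCD 1, 2 and 3, against 324, 331 and 347 CPM in ND 1, 2 and 3. The diets overlapped, since HCD 1 was the lowest of all 6 libraries and HCD 2 and HCD 3 the highest. Its log2 fold change (HCD over ND) was 0.14 (95% interval -0.14 to 0.41, edgeR adjusted p = 0.850). It was 0.06 without HCD 3, 0.09 without HCD 2 and 0.26 without HCD 1. Slc44a2, the second of the pair (ENSMUSG00000057193, chromosome 9, 21320698 to 21355028), had 58.1, 69.3 and 51.8 CPM in HCD libraries and 50.7, 57.8 and 58.6 CPM in ND libraries. Its diets overlapped as well, with a log2 fold change of 0.10 (95% interval -0.19 to 0.39, edgeR adjusted p = 0.883). It was -0.02 without HCD 2, 0.04 without ND 1 and 0.19 without HCD 3.

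Among the kinase genes the diets did not overlap for Chka and overlapped for Chkb and Etnk1. Chka, which encodes the alpha form of choline kinase (ENSMUSG00000024843, chromosome 19, 3851773 to 3894369), had 179, 174 and 180.3 CPM in HCD libraries, against 222, 213 and 189.6 CPM in ND libraries. Every HCD library lay below every ND library, and the HCD values were closer together (177.8 ± 3.07 CPM) than the ND values (208 ± 16.8 CPM; SD, n = 3 each). The log2 fold change was -0.23 ± 0.07 SE (95% interval -0.40 to -0.06), a level 0.854 times that of ND, and did not pass over all genes (edgeR adjusted p = 0.839). Chkb, the beta form (ENSMUSG00000022617, chromosome 15, 89426360 to 89429908), had 34.5, 29.9 and 28.3 CPM in HCD libraries and 30.6, 31.3 and 33.7 CPM in ND libraries. HCD 1 was its highest library and HCD 3 its lowest, and the log2 fold change was -0.04 (95% interval -0.28 to 0.19, edgeR adjusted p = 0.926), running from -0.13 without HCD 1 to 0.01 without HCD 3. Of the merged exons of Chkb, 1552 bases also belong to Gm44502 on the same strand in GENCODE M21. That gene is not in the table, so how reads there were shared out is unknown and the level of Chkb is uncertain. Etnk1, ethanolamine kinase (ENSMUSG00000030275, chromosome 6, 143167221 to 143232307), starts the parallel route to phosphatidylethanolamine. It had the most counts of the 10 genes, with 431, 556 and 495 CPM in HCD libraries and 501, 453 and 606 CPM in ND libraries. The diets overlapped, with ND 3 the highest library and HCD 1 the lowest. The log2 fold change was -0.07 (95% interval -0.39 to 0.24, edgeR adjusted p = 0.911), and ran from -0.16 without HCD 2 to 0.05 without ND 3.

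Pcyt1a, the cytidylyl transferase whose promoter stretch is shown above (ENSMUSG00000005615, chromosome 16, 32430921 to 32475070), had 40.02, 43.2 and 37.4 CPM in HCD libraries, against 39.3, 36.7 and 34.7 CPM in ND libraries. The 2 highest libraries were HCD and the 2 lowest ND, with the diets overlapping between HCD 3 and ND 1. The log2 fold change was 0.12 (95% interval -0.09 to 0.34, edgeR adjusted p = 0.842), with 0.07 without HCD 2 and 0.08 without ND 3.

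Of the final transferases, Cept1 uses CDP-choline and CDP-ethanolamine, and Chpt1 uses CDP-choline. Cept1 (ENSMUSG00000040774, chromosome 3, 106502260 to 106547802) had 90.7, 107 and 109 CPM in HCD libraries and 131, 101 and 119 CPM in ND libraries. ND 2 lay among the HCD libraries, and the log2 fold change was -0.19 (95% interval -0.46 to 0.09, edgeR adjusted p = 0.839). It was -0.10 without ND 1, -0.11 without HCD 1 and -0.28 without ND 2. Its exons share 771 bases with Dennd2d on the opposite strand, which had 537 to 1327 counts a library, and the sources used here do not give the strand setting of the counting. Chpt1 (ENSMUSG00000060002, chromosome 10, 88452745 to 88504073) had 15.1, 13.2 and 11.4 CPM in HCD libraries, against 6.92, 13.1 and 11.5 CPM in ND libraries. A single library, ND 1, stood low, and the other 5 overlapped. The log2 fold change of Chpt1 was 0.33 (95% interval -0.25 to 0.92, edgeR adjusted p = 0.842). Leaving out ND 1 gave 0.10, and leaving out ND 2 gave 0.53. Within a diet Chpt1 varied most among the 10 genes, with a pooled SD of 0.37 on the log2 scale, and Chka least, with 0.09. Chpt1 was highest in HCD 1 and ND 2 within each diet, the 2 libraries with most skeletal muscle RNA. Whether muscle RNA had a part in this was not tested. Without both libraries, in a fit that kept HCD 2, the log2 fold change was 0.42. In bulk tissue, fewer cells of a type and less RNA per cell cannot be told apart.

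Pemt (ENSMUSG00000000301, chromosome 11, 59970614 to 60046489) had the lowest level of the 10. It had 2.07, 1.88 and 2.14 CPM in HCD libraries, against 1.07, 1.40 and 1.55 CPM in ND libraries. The HCD libraries all lay above the ND libraries. These values rest on 43, 39 and 44 counts in HCD and 24, 37 and 32 counts in ND libraries, so that counting error alone is up to 20.4% of a value. The log2 fold change was 0.60 ± 0.26 SE, a ratio of 1.51, and its 95% interval reached from -0.01 to 1.21 (edgeR adjusted p = 0.839). On the log2(FPKM + 1) scale, where the pseudocount exceeds the level of this gene, the difference was 0.22.

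Gpcpd1, the glycerophosphocholine phosphodiesterase gene (ENSMUSG00000027346, chromosome 2, 132529082 to 132587729), had 84.6, 76.5 and 88.2 CPM in HCD libraries, against 56.2, 66.5 and 60.8 CPM in ND libraries. The lowest HCD library, HCD 2, lay above the highest ND library, ND 2, so the diets did not overlap. In deposited FPKM, where no TMM scaling enters, the values were 8.21, 7.39 and 8.25 in HCD and 5.25, 6.39 and 5.79 in ND libraries, with the same gap between the diets. The log2 fold change was 0.44 (95% interval 0.23 to 0.65), a ratio of 1.36, beside a pooled SD within a diet of 0.11 on the log2 scale. These are the values for which the gene was chosen, and they are given without a test. The interval makes no allowance for that choice, and the refits that follow use the same values. Leaving out each library in turn gave a log2 fold change of 0.38 (without ND 1) to 0.51 (without ND 2), and leaving out HCD 1 and ND 2 together gave 0.50. No exon of Gpcpd1 overlaps another gene in GENCODE M21.

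**Figure D1:**
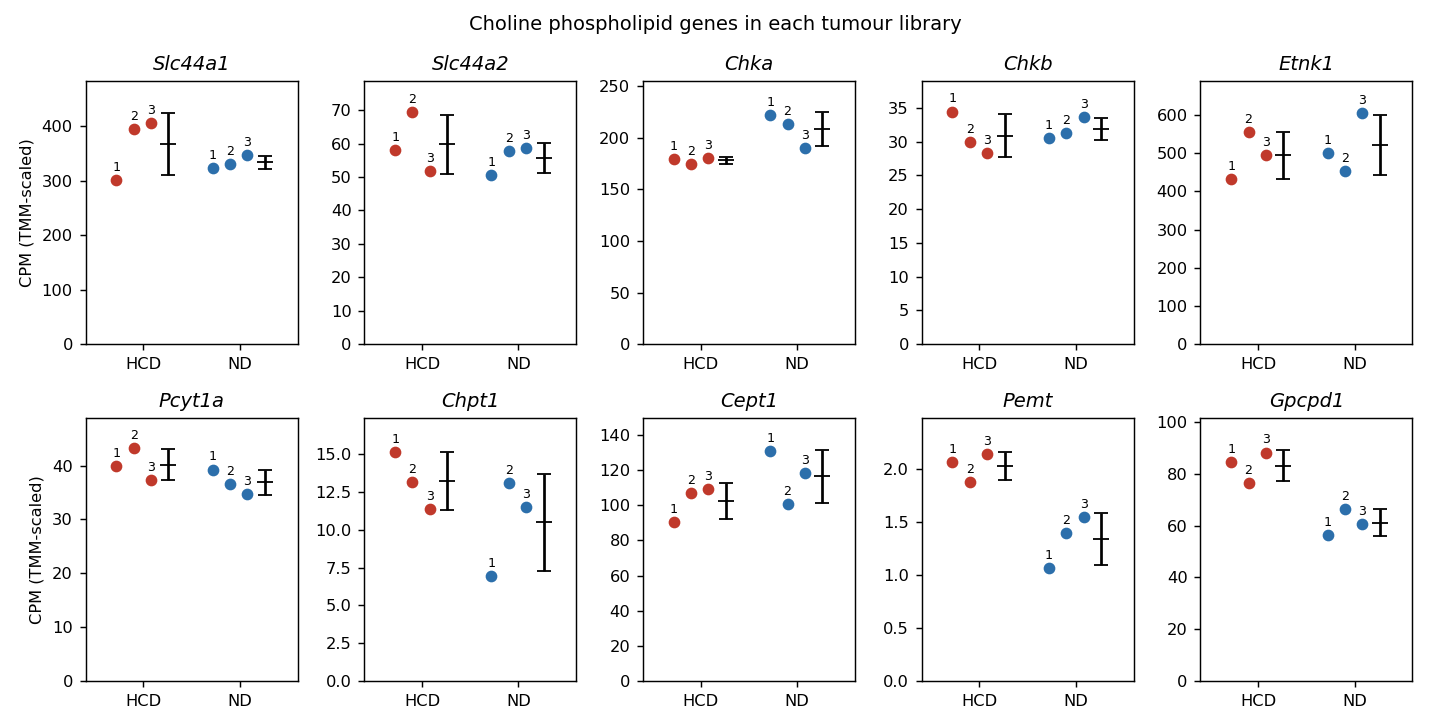
Level of each gene in CPM (TMM-scaled; linear axis from 0) in the 3 HCD libraries (red) and the 3 ND libraries (blue), with the replicate number above each point and the mean ± SD (n = 3) beside them. The diets do not overlap for Gpcpd1 and Pemt, which lie higher in HCD libraries, and for Chka, which lies lower, and they overlap for the other 7 genes.

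Set side by side, 3 of the 10 genes had diets that did not overlap, 2 higher and 1 lower in HCD libraries. The same held for 11.1% of all 15539 tested genes, with 4.75% higher and 6.36% lower. Gpcpd1 is 1 of the 3 and was chosen for it, so nothing is read from the count. By the quasi-likelihood test of edgeR, 0 of the 10 genes passed after adjustment over all genes, where 0.0% of all genes passed. Leaving out Gpcpd1, which was chosen on this p, 1 of the other 9 genes, Chka, had an unadjusted p under 0.05, where 5.3% of all genes did. DESeq2 gave an adjusted p for 9 of them (Pemt had none) and called 0, where it called 0.0576% of 10413 genes. Limma on log2(FPKM + 1), whose filter left out Pemt, called 0 of 9, and limma-voom called 0 of 10. The median log2 fold change of the 10 was 0.11, with 6 positive and 4 negative, beside a median of 0.01 over all tested genes. A p that misses the threshold does not show that the diets are alike. The intervals above, that of Gpcpd1 aside, leave room for differences up to the bounds they give.

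**Figure D2:**
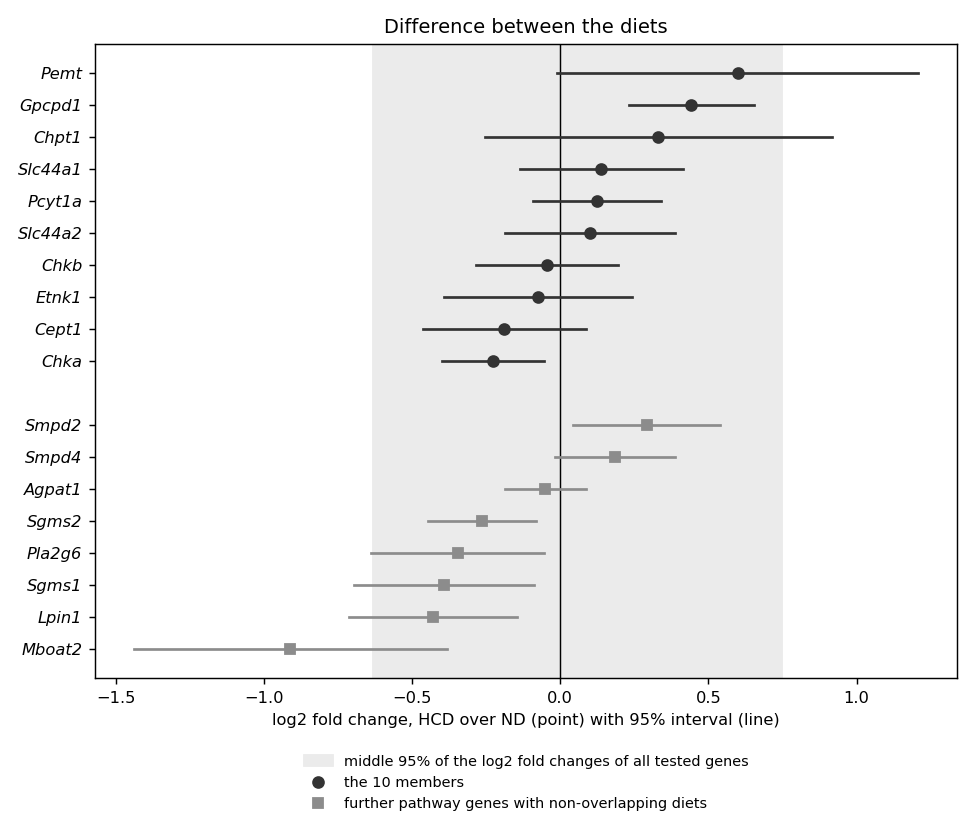
Log2 fold change of HCD over ND (point) with its 95% interval (line) for the 10 genes (black circles) and for 8 further pathway genes whose diets do not overlap (grey squares), beside the middle 95% of all 15539 tested genes (grey band, -0.63 to 0.75). All 10 genes lie within the band, from -0.23 (Chka) to 0.60 (Pemt), and Mboat2 at -0.91 lies outside it.

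The levels of the 10 genes against each other can be compared only per length. The deposited FPKM values divide by a length that, for 68.7% of 15522 genes, equals to within 1 base the sum of all distinct exons of the gene, so that stretches shared by overlapping exons of several transcripts count more than once. For Chkb this length was 10412 bases where its merged exons span 3061 bases, and for Slc44a2 it was 3456 bases where the merged exons of GENCODE M21 span 8677. The order of levels is therefore given as CPM per kilobase of merged exons (mean ± SD over 6 libraries), with the deposited FPKM beside it where they differ. Slc44a1 stood highest at 50.5 ± 5.95 CPM per kilobase and lay above Etnk1 in 6 of 6 libraries. Etnk1 at 35.8 ± 4.58 and Cept1 at 35.1 ± 4.47 did not differ beyond their spread, with Etnk1 the higher in 3 of 6 libraries. In deposited FPKM the same pair was apart, with 33.6 for Etnk1 and 20.97 for Cept1. Chka followed at 16.1 ± 1.65 CPM per kilobase. Chkb at 10.3 ± 0.762 and Gpcpd1 at 9.89 ± 1.79 CPM per kilobase did not differ beyond their spread, each being the higher in 3 of 6 libraries. In deposited FPKM that pair was apart, with 6.88 for Gpcpd1 and 3.02 for Chkb, and Gpcpd1 the higher in 6 of 6 libraries. Slc44a2 came next at 6.65 ± 0.766 CPM per kilobase, and in deposited FPKM it stood above Chka (16.7 against 9.95). Its deposited length is shorter than its merged exons, so it cannot be a sum of the exons of GENCODE M21. The place of Slc44a2 in this order is therefore uncertain. So is that of Chkb, of whose merged exons 1552 bases also belong to Gm44502. Pcyt1a had 5.20 ± 0.403 CPM per kilobase, Chpt1 1.43 ± 0.335 and Pemt 0.802 ± 0.199, each above the next in 6 of 6 libraries. The rate-limiting cytidylyl transferase gene thus stood 8 of 10 in this order.

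**Figure D3:**
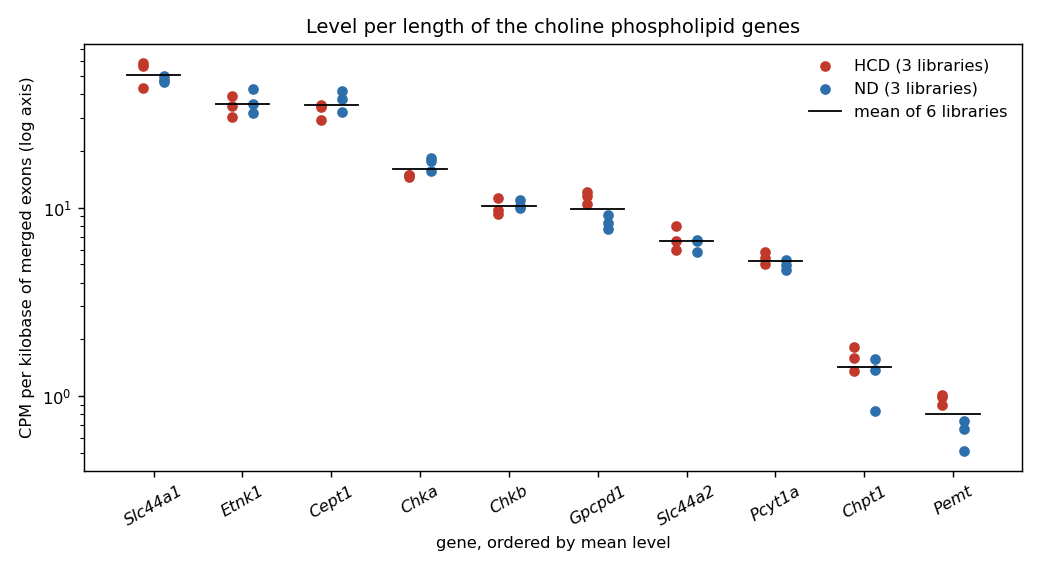
Level per length of the 10 genes, as CPM per kilobase of merged exons on a log axis, in the 3 HCD libraries (red), the 3 ND libraries (blue) and as the mean of 6 (line). The means run from 50.5 for Slc44a1 to 0.802 for Pemt, and the points of neighbours such as Etnk1 and Cept1 overlap.

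In 6 pairs, genes that do a like step, or lead to phosphatidylcholine by different routes, were compared within each library, a measure that the choice of the genes did not use. On log2(FPKM + 0.1), each of the 6 pairs differed in the same direction in 6 of 6 libraries (exact two-sided sign-flip permutation test over 6 libraries, p = 0.03125 for each pair, which is the smallest it can give, and Benjamini-Hochberg adjusted p = 0.03125 over the 6 pairs). The test covers the spread between libraries and not the length that the values were divided by. It shows only that an order was steady, and the share of other gene pairs that would do the same was not computed. Chka stood above Chkb by a log2 ratio of 1.69 ± 0.18 (SD, n = 6), and by 0.64 ± 0.18 per kilobase of merged exons. Chkb shares 1552 of its merged exon bases with Gm44502, and how reads there were counted is unknown. Both the size and the direction of this ratio are therefore uncertain. Slc44a1 stood above Slc44a2 by 1.40 ± 0.20 and, per kilobase of merged exons, by 2.91 ± 0.20. The size of the latter rests on the uncertain length of Slc44a2. Chpt1 stood below Cept1, with log2 ratios of -4.28 ± 0.52 and -4.56 ± 0.53 on these scales. Etnk1 stood above Etnk2, the second ethanolamine kinase gene, by 6.70 ± 0.39 and 6.38 ± 0.42. Pcyt1a stood above Pemt by 2.12 ± 0.31 and 2.58 ± 0.33. For these 5 pairs the merged-exon scale gave an adjusted p of 0.0375 by the same exact permutation test. Pcyt1a and Pcyt1b, which encode the alpha and beta forms of the cytidylyl transferase, were the exception. Their log2 ratio was -0.97 ± 0.57 in deposited FPKM but -0.10 ± 0.57 per kilobase of merged exons, where Pcyt1a was the higher in 2 of 6 libraries (exact sign-flip permutation test, adjusted p = 0.625). The test of which form stood higher thus depended on the length used.

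Between the diets, the ratio of Pcyt1a to Pcyt1b differed most. In HCD 1, 2 and 3 the log2 ratio in deposited FPKM was -0.65, -0.08 and -1.09, against -1.76, -1.04 and -1.22 in ND 1, 2 and 3. HCD 3 lay among the ND libraries (difference of means 0.73, two-sided exact permutation p = 0.2, where 3 against 3 libraries cannot go below 0.1). Pcyt1b itself had 24.7, 17.8 and 31.6 CPM in HCD libraries and 52.9, 29.96 and 32.2 CPM in ND libraries, a log2 fold change of -0.63 (95% interval -1.30 to 0.03, edgeR adjusted p = 0.839). The other 5 ratios had exact permutation p-values of 0.2 to 1.0 between the diets, and over the 6 ratios the smallest adjusted p was 0.45.

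**Figure D4:**
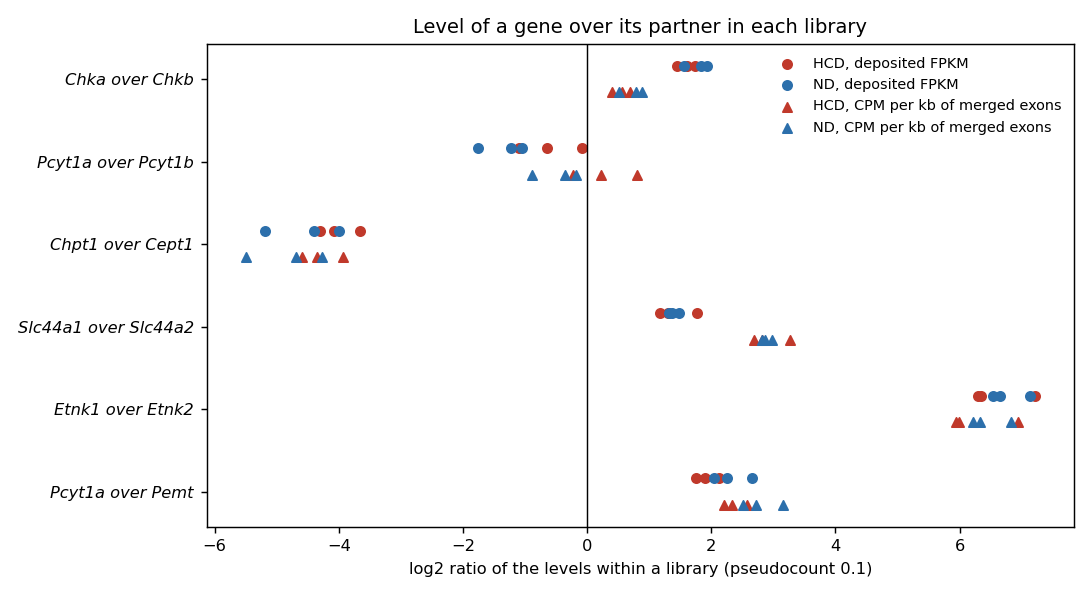
Log2 ratio of the levels of the 2 genes of each pair within each library, in deposited FPKM (circles) and in CPM per kilobase of merged exons (triangles), with HCD libraries in red and ND libraries in blue. Each pair keeps its side of 0 on both scales apart from Pcyt1a over Pcyt1b, whose ratio spans 0 on the merged-exon scale.

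A further 60 genes of choline, phosphatidylcholine and sphingomyelin handling were listed, of which 58 are in the table and 44 were tested. By edgeR 0 of the 44 passed in either direction, where 0.0% of all genes passed, and 7 had an unadjusted p under 0.05, where 5.3% of all genes did. DESeq2 and limma on log2(FPKM + 1) gave 40 of them an adjusted p and called 0, and limma-voom called 0 of 44. Their median log2 fold change was 0.01, with 22 positive and 22 negative. The diets did not overlap for 8 of them, 2 higher and 6 lower in HCD libraries, where 11.1% of all tested genes did not overlap.

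Sphingomyelin synthesis takes its head group from phosphatidylcholine, and both synthase genes lay lower in HCD libraries. Sgms1 had 133, 110.3 and 140.1 CPM in HCD libraries, against 195, 152 and 156 CPM in ND libraries (log2 fold change -0.39 ± 0.13 SE, edgeR adjusted p = 0.839). Sgms2 had 99.7, 109 and 98.2 CPM in HCD libraries, against 117.2, 134 and 117.2 CPM in ND libraries (log2 fold change -0.26 ± 0.08 SE, edgeR adjusted p = 0.839). The sphingomyelinase genes Smpd2 and Smpd4, whose products cut sphingomyelin, lay on the other side. Smpd2 had 33.7, 30.9 and 29.0 CPM in HCD libraries and 24.9, 23.5 and 28.2 CPM in ND libraries. Smpd4 had 40.6, 38.7 and 40.3 CPM in HCD libraries and 34.8, 37.9 and 32.5 CPM in ND libraries. The gap between the diets was narrow for both, and Smpd1, the lysosomal sphingomyelinase gene, had a log2 fold change of -0.05.

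In the supply of diacylglycerol, Lpin1, a phosphatidate phosphatase gene, had 28.5, 27.4 and 29.3 CPM in HCD libraries, against 44.9, 35.6 and 34.2 CPM in ND libraries. Its log2 fold change was -0.43 ± 0.12 SE (edgeR adjusted p = 0.839), with the HCD libraries close together and ND 1 standing highest. Agpat1, an acyltransferase gene, had diets that did not overlap by a narrow margin, with a log2 fold change of -0.05. Among the genes that exchange fatty acids on phospholipids, Mboat2, a lysophospholipid acyltransferase gene, had the largest change of the 8 (log2 fold change -0.91 ± 0.22 SE, edgeR adjusted p = 0.839). It had 7.71, 5.94 and 8.91 CPM in HCD libraries, against 15.8, 10.6 and 16.02 CPM in ND libraries. Pla2g6, a phospholipase A2 gene, had 38.8, 30.8 and 30.7 CPM in HCD libraries and 47.1, 40.4 and 40.1 CPM in ND libraries. Of the 8 genes tested for this exchange, 6 had positive and 2 negative log2 fold changes, with a median of 0.21. Lpcat3, whose diets overlapped, had a log2 fold change of 0.26 (95% interval 0.04 to 0.48, edgeR adjusted p = 0.839). No gene of the 11 tested for phosphatidylcholine and glycerophosphodiester breakdown, Gpcpd1 aside, had diets that did not overlap. Chdh and Bhmt, which encode the oxidation of choline and the use of its product betaine in liver, had 0 to 6 and 0 to 2 counts a library.

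Over the 6 libraries, 9732 genes that averaged 10 CPM or more were ranked by how far their pattern lay from that of Gpcpd1, taken as the root mean square difference of log2 CPM after the mean of each gene was removed. The 5 nearest were Lyrm9 (0.064), Aspscr1 (0.065), Bpgm (0.067), Mocos (0.078) and Phospho2 (0.080), beside a median of 0.267 over all ranked genes. The ranking uses the same libraries as the diet difference, so near genes share it by construction, and their own log2 fold changes were 0.33 to 0.52. Bpgm, which encodes the enzyme of 2,3-bisphosphoglycerate in red cells, had 23.9, 19.95 and 25.9 CPM in HCD libraries and 15.5, 17.4 and 15.8 CPM in ND libraries. None of the 8 other choline genes above that level was near Gpcpd1: the nearest, Pcyt1a, ranked 2562 at a difference of 0.227, and Cept1 ranked 8378 at 0.378.

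**Figure D5:**
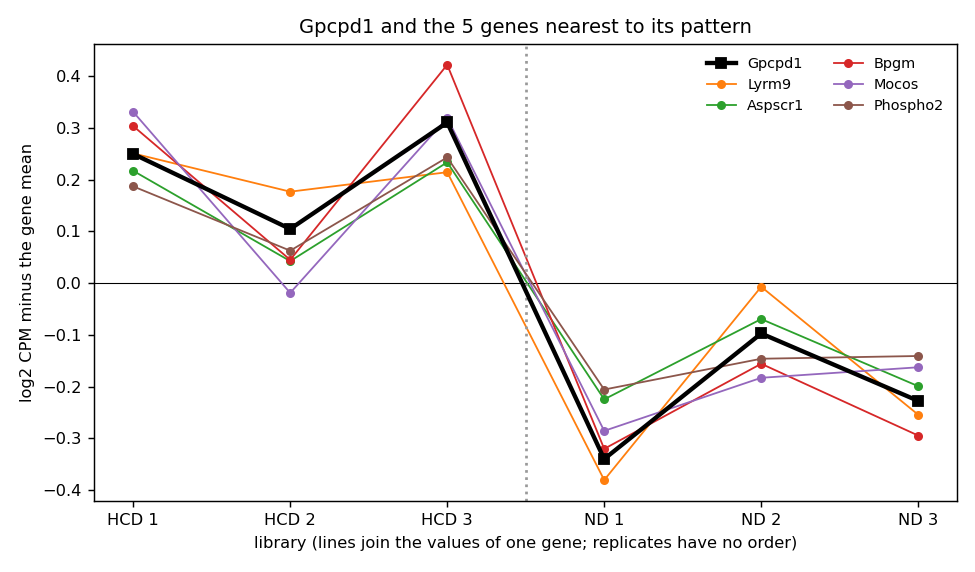
Log2 CPM in each library after subtracting each gene's own mean, for Gpcpd1 (black squares) and the 5 genes nearest to its pattern (coloured circles). Gpcpd1 lies at 0.25, 0.10 and 0.31 in HCD 1, 2 and 3 and at -0.34, -0.10 and -0.23 in ND 1, 2 and 3, and the lines join points of 1 gene without implying an order.

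Of the 10 marker lists for cell types, that of neutrophils differed between the diets without overlap in its sum, as Gpcpd1, Pemt and Chka did. Its 7 genes summed to 90.4, 96.8 and 102.5 CPM in HCD libraries, against 197, 110.1 and 173 CPM in ND libraries, with no gene at 0 in all libraries. For 2 of the 7 genes, Csf3r and Cxcr2, the diets did not overlap. Both were lower in HCD libraries, where 6.36% of all tested genes lay lower in that way. The gap was narrow: Csf3r had at most 43.8 CPM in HCD and at least 44.7 CPM in ND libraries. For Cxcr2 these values were 7.04 and 7.19 CPM. The other genes of the list, S100a8 and S100a9 among them, overlapped. T cell genes summed to 98.7, 142 and 59.1 CPM in HCD libraries and 19.4, 71.3 and 85.1 CPM in ND libraries, and the sums of the other 8 lists overlapped too. The part of these cells in the levels of the choline genes was not tested.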

How the data were processed

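Per the labels, TruSeq paired-end libraries were prepared from total RNA of 6 tumour samples. The authors deposited raw counts per gene and FPKM values side by side for 34745 genes. The submitters' processing notes name mm10, CASAVA 1.8, TopHat2 2.0.9, HTSeq and edgeR, with no roles. For the annotation, strand setting and reads with several matches, the methods are not given in the sources used here. Totals ran from 20351637 to 26228074 counts, and a count of 0 allows up to 0.114 to 0.147 CPM in a library (3 counts, counting error only).

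CPM were computed here with TMM factors. Diets were compared with edgeR 4.0.16 (quasi-likelihood; R 4.3.3; legacy form; diet as the only term; minimum count 10, minimum total 15; prior count 0.125), with Benjamini-Hochberg adjustment over 15539 genes and a threshold of 0.05. Standard errors came from the fold change and F, and intervals are 95%. Level ratios used exact sign-flip permutation tests. Merged exon lengths and coordinates came from GENCODE M21, of the same build as mm10, and promoter windows from RefSeq (GRCm38.p6). Alternatives were DESeq2 1.42.0, limma 3.58.1 (voom, or log2 FPKM), other scalings, filters and pseudocounts, a replicate block and each library left out. The fit without HCD 1 and ND 2 and the merged-exon scale were added after the data were seen. The members and lists were chosen with earlier results of these data known. Named were all members, both genes of each pair and the 5 genes nearest to Gpcpd1. So were pathway genes with non-overlapping diets and a mean of at least 1 CPM (at most 10). Chdh, Bhmt, Lpcat3 and Smpd1 were named after their values were seen.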

Additional observations from a re-analysis of the deposited data

How the results depend on the processing

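In none of 18 alternatives did a choline gene or further pathway gene with an adjusted p pass. All 10 choline genes had one except in DESeq2 and the 2 filtered limma fits on FPKM, where Pemt had none; of the further genes, 40 to 56 had one. Over all genes the count was 0, against 6 lower with DESeq2 and, over the fits without 1 library, 0 to 2 (2 without ND replicate 2). Of 178 refitted fold changes of the 10 genes, 174 kept their direction. The 4 that turned were all in fits without 1 library: Etnk1 (-0.16 to 0.049, 0.013 without HCD 1 and 0.049 without ND 3), Chkb (-0.13 to 0.013, positive without HCD 3) and Slc44a2 (-0.015 to 0.19, negative without HCD 2). The fold change of Gpcpd1 ran from 0.38 to 0.51 without 1 library and from 0.40 to 0.50 over the other alternatives. All 30 values of the level ratios kept their direction, those per diet being in deposited FPKM only. Per kilobase of merged exons, the log2 ratio of Pcyt1a over Pcyt1b averaged 0.26 in HCD and -0.47 in ND libraries. Pcyt1a over Pcyt1b, at -0.10 per kilobase of merged exons (adjusted p = 0.625), no longer passed. The labels do not say whether the replicate number pairs the libraries, and 3 libraries a diet are too few to exclude it. Same-numbered libraries had correlations of deviations of -0.265, 0.117 and 0.0812, and unlike-numbered ones of -0.543 to 0.551. With the replicate block 0 genes passed and the log2 fold change of Gpcpd1 was 0.44. Pemt, left out by the FPKM filter, had 0.22 on log2(FPKM + 1) without that filter. Depth limits Pemt, with 24 to 44 counts a library.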
